A study of Mus musculus with 12 samples.

Results

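RNA-seq profiles of control osteoclasts were examined for the genes and programs that made up the transcript pool. The profile rested on the 6 control libraries among 12 libraries of the series, 3 female and 3 male, chosen by their genotype label. Within them, the 20716 autosomal protein-coding genes were ranked by mean FPKM (fragments per kilobase of gene, scaled by library depth) over the 6 libraries. FPKM is scaled per length, so levels of different genes are set side by side below on that scale. The cells were bone marrow monocytes of female or male mice aged 8 to 12 weeks, cultured with M-CSF and RANKL and harvested on differentiation day 4. The labels give the genotype of these libraries as Control only, with no strain, and the other 6 libraries of the series are Per1 knockout and are not profiled. Each sex has a library from each of 3 batches, which carry the same numbers as the biological replicates. The labels do not say how many animals stood behind a library, so the spread between libraries may be technical in part.

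Osteoclasts are large multinucleated cells of the monocyte lineage that dissolve bone. They attach to it through an actin-rich sealing zone, pump protons and chloride into the enclosed space to dissolve mineral, and secrete proteases that digest the collagen left behind. M-CSF keeps the precursors alive and RANKL, acting through its receptor RANK, drives them to fuse and differentiate. Cultures made in this way usually also hold precursors and macrophages that have not fused, and in such bulk RNA fewer cells of a type and less RNA per cell cannot be told apart.

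The control libraries held 15646020 to 23120834 fragments, rebuilt from the whole steps in the FPKM values. The floor for a gene 1 kb long, set at 3 fragments, was 0.130 to 0.192 FPKM and covers counting error only. Between 11347 and 11519 genes reached 1 FPKM in a library, and 9704 of the 20716 ranked genes had a mean of 1 FPKM or more. The sex labels matched the transcripts of the sex chromosomes in all 6 libraries. Xist, the noncoding RNA of the inactive X chromosome, had 41.3, 40.5 and 47.8 FPKM in female libraries and was at 0 in all 3 male libraries. Female control 2 stood apart from the other libraries and male control 2 lay at the opposite end of the same axis, as described below. For that reason the main values are also given without female control 2.

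The osteoclast label was checked against 4 defining markers, and all 4 lay among the 100 most abundant genes. Ctsk, the protease that cleaves bone collagen, had 7299, 5138 and 6902 FPKM in female libraries and 6466, 8117 and 5946 FPKM in male libraries. Mmp9, a gelatinase, had 3575, 3011 and 3112 FPKM in female libraries and 3894, 4502 and 2954 FPKM in male libraries. Acp5, the tartrate-resistant acid phosphatase used to stain osteoclasts, had 2902, 3109 and 2860 FPKM in female libraries and 3543, 4113 and 2469 FPKM in male libraries. These 3 genes held ranks 2, 3 and 4, and female and male ranges overlapped for each of them. Atp6v0d2, a proton pump subunit also needed for fusion, ranked 84 with 425.6, 292.2 and 406.9 FPKM in female libraries and 377.5, 415.2 and 343.9 FPKM in male libraries. Its lowest library was female control 2, which was also the lowest for Ctsk.

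The most abundant of the ranked autosomal protein-coding genes by mean was Lyz2, the lysozyme of macrophages and granulocytes, and not a resorption gene. It had 6785, 9468 and 6355 FPKM in female libraries and 7018, 4866 and 7226 FPKM in male libraries. Lyz2 and Ctsk changed places between libraries. Lyz2 was the higher of the pair in female control 2, male control 1 and male control 3, and Ctsk was the higher in female control 1, female control 3 and male control 2. Their means of 6953 ± 1493 FPKM for Lyz2 and 6645 ± 1044 FPKM for Ctsk (SD, n = 6) therefore set no order between them. Below them the order was firmer at 1 point. The lowest Ctsk value, 5138 FPKM, lay above the highest Mmp9 value, 4502 FPKM. Of 25 neighbouring pairs at the top of the ranking, 2 had ranges that did not overlap, Ctsk over Mmp9 and Ftl1 over Cstb, so most single ranks are not fixed by these 6 libraries.

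**Figure D1:**
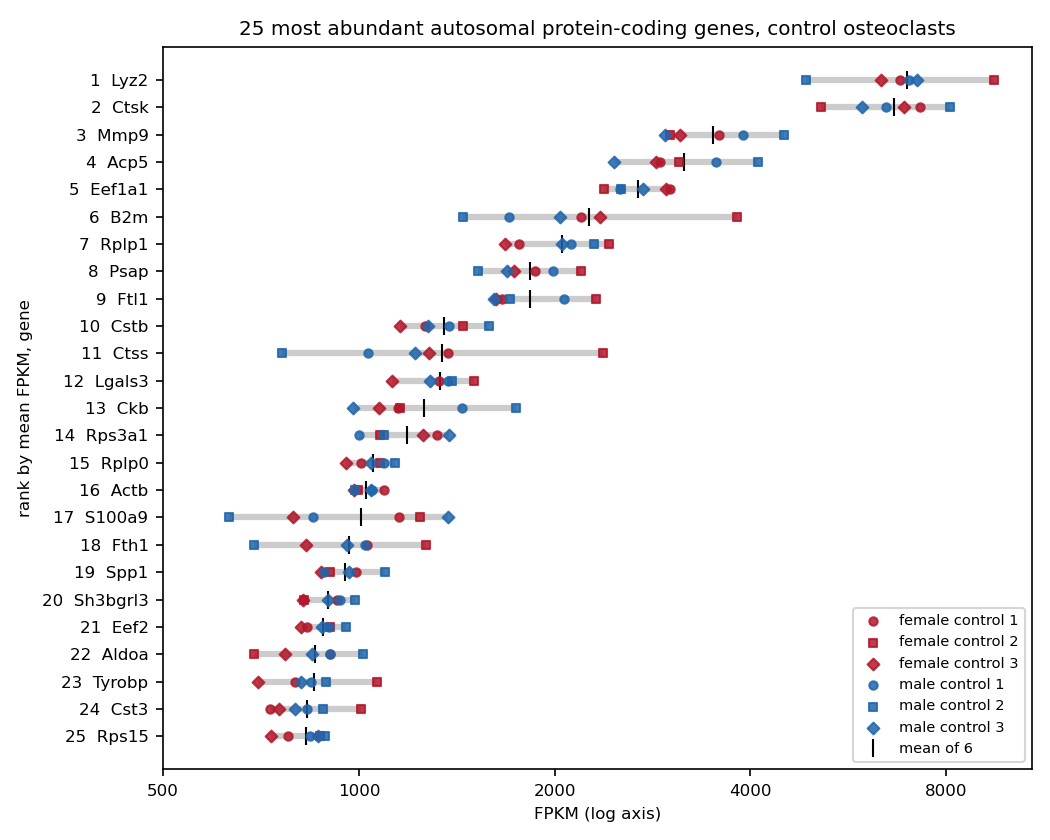
FPKM (log axis) of the 25 most abundant autosomal protein-coding genes, with a point for each of 6 control libraries, a grey bar from the lowest to the highest library and a black tick at the mean. Lyz2 and Ctsk overlap at the top, and B2m and Ctss spread widely, with female control 2 at the high end and male control 2 at the low end.

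A few genes held much of the summed FPKM. The 10 most abundant genes held 12.1% ± 0.415 of the summed FPKM of all ranked genes (SD, n = 6), and the 100 most abundant held 32.2% ± 0.716. As a share of rebuilt fragments, which are not scaled by gene length, the same 100 held 18.5%. By summed FPKM, libraries ranged from 31.0% to 33.2% for the 100, a narrow spread between libraries. The top 1000 genes held 66.0%. Membership was also steady: 8 genes were among the 10 most abundant in every library, 75 among the 100 most abundant, and 833 among the 1000 most abundant. After the markers and Lyz2, the leading genes were Eef1a1, a translation elongation factor, at 2691 ± 257 FPKM, B2m, the light chain of MHC class I, at 2258 ± 833 FPKM, and the ribosomal stalk protein gene Rplp1 at 2054 ± 292 FPKM. Psap, a precursor of lysosomal activator proteins, had 1833 ± 237 FPKM, and Ftl1, the ferritin light chain, had 1831 ± 291 FPKM. The cytosolic cathepsin inhibitor Cstb closed the leading 10. The X-linked genes, left out of the ranking, include 5 with means high enough for the top 100, led by Tmsb4x, an actin-sequestering thymosin, at 2015 FPKM and the glycolytic enzyme gene Pgk1 at 738 FPKM. The 13 protein-coding mitochondrial genes, also outside the ranking, held 6.67% to 8.45% of all summed FPKM of a library. The highest of them, mt-Co1, averaged 9204 FPKM, above Lyz2.

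Of the 100 most abundant genes, 81 belonged to the 19 lists of osteoclast and cell programs, 2 to a list of neutrophil markers, and 17 to none of the lists. The lists together held 40.9% of the summed FPKM. Ribosomal proteins and elongation factors were the largest, with 11.7% ± 0.560 of the summed FPKM and 32 of the 100 most abundant genes. Residual macrophage and myeloid genes followed with 5.76% ± 0.945, and bone matrix resorption enzymes with 5.17% ± 0.818 (SD, n = 6 each). Without female control 2 those 2 shares were 5.42% and 5.38%. As shares of rebuilt fragments, the ribosomal, myeloid and resorption lists held 6.24%, 3.45% and 3.48%. Within the ribosomal list, Rps3a1, a small-subunit protein, averaged 1187 ± 150 FPKM and Rplp0, a stalk protein, 1052 ± 64.0 FPKM. The order of myeloid and resorption shares was not the same in all libraries. Female control 1 had 5.67% myeloid and 5.33% resorption, while male control 2 had 4.52% myeloid and 6.49% resorption.

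**Figure D2:**
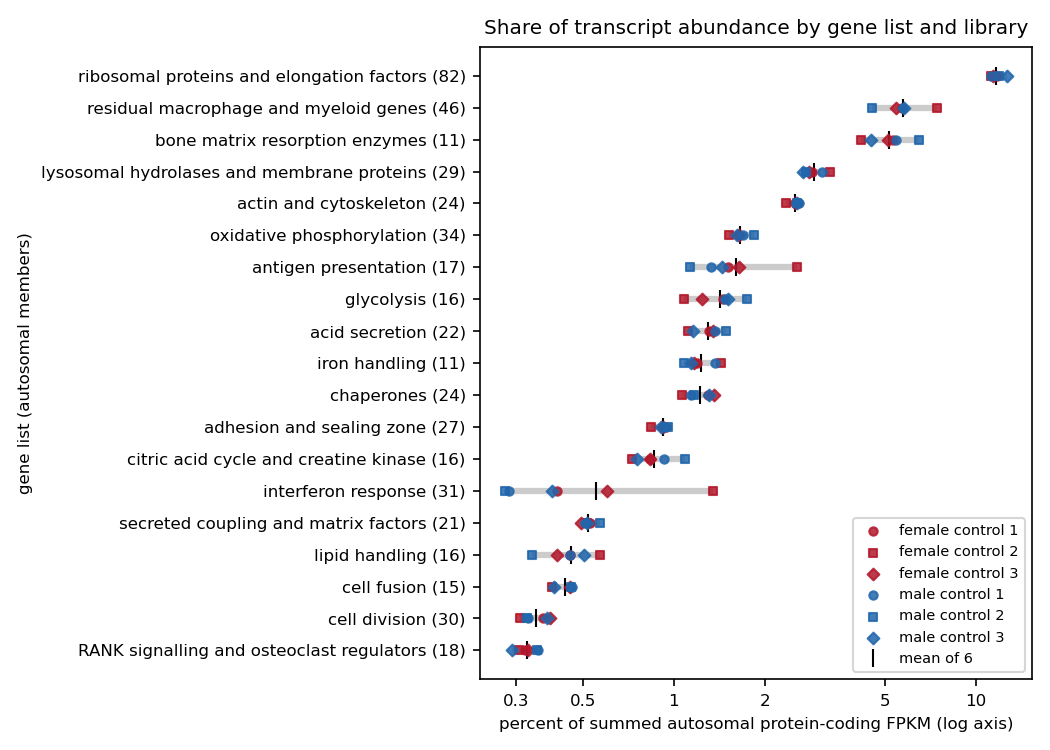
Share of the summed FPKM of autosomal protein-coding genes (percent, log axis) held by each of 19 gene lists, with a point per control library, a grey bar from lowest to highest and a tick at the mean. Ribosomal proteins lead at 11.7%, myeloid and resorption lists overlap near 5%, and the interferon list has the widest bar, from 0.278% to 1.35%.

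The resorption share came almost entirely from its 3 leading genes. Ctsk, Mmp9 and Acp5 made up 97.0% of the list's summed FPKM, and Ctsk alone 48.4%. The next members were far lower. Arsb, a lysosomal sulfatase, averaged 116 ± 17.7 FPKM and the metalloprotease gene Adam8 averaged 113 ± 18.4 FPKM. Mmp14, a membrane-bound collagenase named here after its values were seen, averaged 94.5 ± 6.74 FPKM. Mmp2 was the 1 member below 1 FPKM, at 0.374 FPKM. All 11 members are autosomal, and 10 had a mean of 1 FPKM or more. The resorption share was lowest in female control 2, at 4.15%, and highest in male control 2, at 6.49%.

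Acid secretion, in contrast, was spread over many genes of differing level, and 20 of its 22 members averaged 10 FPKM or more. Its 22 members held 1.30% ± 0.141 of the summed FPKM, all 22 averaged 1 FPKM or more, and 15 were among the 500 most abundant genes. The leading gene, Atp6v0d2, held 10.9% of the list. Atp6v0b, part of the membrane ring of the pump, averaged 342 ± 51.0 FPKM, and Atp6v1b2, a catalytic-domain subunit, averaged 336 ± 37.9 FPKM. Tcirg1, the a3 subunit that places the pump in the ruffled border, had 309.8, 337.5 and 313.4 FPKM in female libraries and 354.5, 394.3 and 280.2 FPKM in male libraries. Further members were named for their textbook roles after their values were seen. Clcn7, the chloride-proton exchanger that balances the charge, averaged 108 ± 15.5 FPKM, and Car2, the carbonic anhydrase that supplies protons, averaged 87.9 ± 11.0 FPKM. The most variable member above 10 FPKM was Slc4a2, a chloride-bicarbonate exchanger, with 37.8, 31.8 and 38.0 FPKM in female libraries and 43.5, 51.3 and 33.3 FPKM in male libraries. Male control 2 was the highest library for 13 of the 22 members and female control 2 the lowest for 10. For comparison with such counts, among the 1000 most abundant genes female control 2 was highest in 273 and lowest in 249, and male control 2 highest in 246 and lowest in 175.

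Lysosomal hydrolases and membrane proteins held 2.91% ± 0.232, more than the acid secretion list, and all 29 averaged 10 FPKM or more. After Psap came Cd68, a lysosomal glycoprotein of phagocytes, at 738 ± 88.4 FPKM, the aspartic protease gene Ctsd at 705 ± 139 FPKM and the cathepsin gene Ctsz at 688 ± 46.5 FPKM. Female control 2 was the highest library for 17 of 29 members. Male control 3 was the lowest for 13 and male control 2 for 11. The share of the whole list was highest in female control 2, at 3.28%, and lowest in male control 3, at 2.67%, with 2.74% in male control 2. Lgmn, an asparaginyl endopeptidase, was the most variable, with 120.4, 210.4 and 121.2 FPKM in female libraries and 129.1, 91.6 and 133.0 FPKM in male libraries. Cd63, a tetraspanin of late endosomes named after its values were seen, stayed between 206.8 and 223.9 FPKM in all 6 libraries.

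Fusion genes held a small share, 0.437% ± 0.0298, and none was among the 100 most abundant. The list was led by genes with roles beyond fusion. Sirpa, a surface receptor of myeloid cells, averaged 294 ± 19.4 FPKM, and Anxa5, a phosphatidylserine-binding annexin, averaged 292 ± 15.2 FPKM. The tetraspanin gene Cd9 averaged 182 ± 20.3 FPKM. Dcstamp, a membrane protein required for osteoclast fusion, ranked 233 and was the most variable member above 10 FPKM. It had 187.9, 120.1 and 189.1 FPKM in female libraries and 168.9, 194.9 and 134.5 FPKM in male libraries, with female control 2 lowest. Ocstamp, its partner in fusion and named after its values were seen, averaged 46.5 ± 8.73 FPKM. Of the 15 members, 14 averaged 1 FPKM or more, and the exception was Adam12 at 0.00826 FPKM.

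Adhesion genes held 0.919% ± 0.0414 and the actin cytoskeleton 2.52% ± 0.0899. Itgb2, the beta chain of leukocyte integrins, led the adhesion list at 399 ± 31.1 FPKM, above the small GTPase genes Rap1b, at 323 ± 28.7 FPKM, and Cdc42, at 284 ± 19.8 FPKM, and the actin-severing gelsolin gene Gsn, at 255 ± 39.8 FPKM. The chains of the osteoclast vitronectin receptor, named for their role after their values were seen, were lower, with Itgb3 at 81.4 ± 7.71 FPKM and Itgav at 45.8 ± 7.26 FPKM. Itgb3 thus averaged below Itgb2, and the ranges of the 2 genes did not overlap. Actb and Actg1, the cytoplasmic actins, averaged 1024 ± 43.6 and 601 ± 63.4 FPKM. Vim, an intermediate filament protein, averaged 667 ± 54.3 FPKM, and the actin-capping gene Capg averaged 477 ± 26.4 FPKM. All 24 autosomal members of the actin list were among the 1000 most abundant genes.

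The regulators of osteoclast formation were modest in abundance, with 0.327% ± 0.0253 of the summed FPKM and none in the top 100. Junb and Fos, subunits of the transcription factor AP-1, averaged 170 ± 20.3 and 108 ± 15.7 FPKM. Oscar, an immunoglobulin-like co-stimulatory receptor, averaged 104 ± 19.5 FPKM, and Tm4sf19, a tetraspan membrane protein, averaged 74.9 ± 13.8 FPKM. The next 2 genes were named for their roles after their values were seen. Nfatc1, the transcription factor that drives the osteoclast program, averaged 58.3 ± 6.76 FPKM, and Tnfrsf11a, which encodes RANK, averaged 35.9 ± 2.65 FPKM. Calcr, the calcitonin receptor of mature osteoclasts, had 20.06, 19.39 and 23.01 FPKM in female libraries and 20.4, 19.4 and 11.6 FPKM in male libraries. Its low value in male control 3 stood clear of the other 5 libraries.

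Among the listed autosomal members, the order of respiration and glycolysis depended on the scale. As shares of rebuilt fragments they held 1.10% and 1.64%, and as shares of summed FPKM the order was the opposite. The X-linked Pgk1, at 738 FPKM, and the 13 mitochondrial genes lie outside these shares. So do Cox6a1 and Cox6b1, at 476 and 361 FPKM, which are in none of the lists. Gapdh, whose values are uncertain for the reason given below, lies inside the glycolysis share at a mean of 12.9 FPKM. The order therefore holds only for the listed members as they were counted. Oxidative phosphorylation held 1.66% ± 0.108 of the summed FPKM, with all 34 measured autosomal members above 10 FPKM and 29 among the 1000 most abundant genes. Cox8a, a cytochrome oxidase subunit, led at 483 ± 68.0 FPKM, followed by the ATP synthase genes Atp5a1 at 416 ± 29.3 FPKM and Atp5b at 405 ± 27.0 FPKM. Male control 2 was the highest library for 30 of the 34. Glycolysis held 1.42% ± 0.231, with Aldoa at 855 ± 114, Pkm at 704 ± 67.7, Ldha at 607 ± 107 and Eno1 at 449 ± 70.3 FPKM, enzymes from aldolase to lactate dehydrogenase. Ckb, the brain-type creatine kinase that regenerates ATP, made up 55.0% of the citric acid cycle and creatine kinase list. It had 1150, 1155 and 1075 FPKM in female libraries and 1442, 1747 and 981 FPKM in male libraries, so male libraries held both the highest and the lowest value. Gapdh, another glycolytic enzyme, had 3.57, 2.01 and 2.90 FPKM in female libraries and 59.6, 4.41 and 4.81 FPKM in male libraries. These values are uncertain because the gene has many near-identical copies in the mouse genome between which counting could split reads.

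Highly expressed genes in none of the lists included inhibitors of cathepsins. Cstb averaged 1351 ± 152 FPKM and Cst3, the secreted cystatin C, 833 ± 100.4 FPKM. Sh3bgrl3, a small thioredoxin-like protein, averaged 898 ± 66.4 FPKM and Ptma, the nuclear protein prothymosin alpha, 781 ± 65.9 FPKM. Mif, the macrophage migration inhibitory factor chosen here after its values were seen, had 370, 386 and 304 FPKM in female libraries and 492, 580 and 436 FPKM in male libraries. All its female values lay below all its male values, and with an adjusted p of 0.843 by limma it was no call.

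The remaining lists were led by few genes. Ferritin light and heavy chains, Ftl1 and Fth1 at 1831 ± 291 and 966 ± 196 FPKM, with the transferrin receptor gene Tfrc at 276 ± 46.6 FPKM, made up 93.6% of the iron list. That list held 1.23% ± 0.137. Spp1, the bone matrix protein osteopontin, averaged 952 ± 84.6 FPKM and made up 68.6% of the secreted factors, which held 0.522% ± 0.0271. Apoe, a lipid carrier, averaged 529 ± 164 FPKM in a lipid list that held 0.456% ± 0.0789, and 0.756% of rebuilt fragments. Hspa8, the constitutive heat shock protein, led the chaperones at 452 ± 40.1 FPKM, with 1.22% ± 0.115 for the list. Cell division genes held 0.351% ± 0.0330, and all 30 averaged 1 FPKM or more. The proliferation antigen gene Mki67, named after its values were seen, had 43.6, 26.4 and 42.8 FPKM in female libraries and 39.8, 39.1 and 44.0 FPKM in male libraries.

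Residual myeloid genes were carried by Lyz2, which made up 45.3% of the list. Ctss, a cathepsin of antigen-presenting cells, had 1372, 2373 and 1280 FPKM in female libraries and 1033, 763 and 1221 FPKM in male libraries. Female control 2 was the highest and male control 2 the lowest, and the female range lay above the male range. Lgals3, a galectin of macrophages that osteoclasts also make, averaged 1333 ± 126 FPKM, and Tyrobp, the adaptor DAP12 needed for co-stimulation of osteoclasts, averaged 852 ± 122 FPKM. Csf1r, the receptor of M-CSF, averaged 285 ± 25.3 FPKM, while Adgre1, which encodes the macrophage antigen F4/80, had 94.6, 164.7 and 90.6 FPKM in female libraries and 85.6, 62.3 and 83.3 FPKM in male libraries. Those last genes were named after their values were seen. All 46 autosomal members averaged 1 FPKM or more. Female control 2 was the highest library for 38 of 46 and male control 2 the lowest for 29.

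Markers of other marrow cells were low, apart from those of neutrophils and of megakaryocytes and platelets. All 14 neutrophil markers averaged 1 FPKM or more, and their summed FPKM was 1786 to 2844 in female libraries and 1496 to 2962 in male libraries. S100a9, a subunit of calprotectin, ranked 17, with 1151, 1240 and 792 FPKM in female libraries and 851, 632 and 1372 FPKM in male libraries. S100a8, its partner, ranked 48 at 592 ± 176 FPKM. Monocytes also make both proteins, and Ly6g, the defining neutrophil antigen, averaged 1.62 FPKM. Most of the list lay higher than Ly6g, as 12 of the 14 neutrophil markers averaged 10 FPKM or more. Among the 1000 most abundant genes were 6 of them. Together S100a9, S100a8 and Ngp, the last named after its values were seen, made up 83.7% of the summed FPKM of the list. Megakaryocyte and platelet markers, led by the chemokine gene Ppbp at 107 ± 24.2 FPKM and Pf4 at a mean of 79.0 FPKM, summed to 171 to 223 FPKM in female libraries and 146 to 268 FPKM in male libraries. The other 6 lists summed to small values. Stromal and osteoblast markers, led by Runx2 and Dcn at 1.70 and 1.02 FPKM, reached 3.35 to 8.63 FPKM over all 6 libraries, and 2 of 15 averaged 1 FPKM or more. Lymphocyte markers, led by the B cell receptor components Cd79b and Cd79a at 9.85 and 4.83 FPKM, reached 17.1 to 36.8 FPKM. Together with Cd4, the next highest member, these genes made up 73.3% of the summed FPKM of the autosomal members. The T cell gene Cd3e, named after its values were seen, averaged 0.0147 FPKM. Erythroid markers, led by Hba-a1 and Epor at 2.08 and 0.538 FPKM, reached 2.08 to 5.41 FPKM, and endothelial markers, led by Vwf and Kdr at 3.03 and 1.94 FPKM, reached 5.15 to 10.7 FPKM. Dendritic cell markers, led by Ccr7 and Siglech at 10.3 and 2.58 FPKM, reached 12.3 to 23.8 FPKM. Mast cell, basophil and eosinophil markers, led by Prg2 and Prss34 at 29.0 and 5.78 FPKM, reached 24.7 to 59.9 FPKM, with Mcpt4 at 0 in all 6. The part of such cells in the profile was not tested.

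The libraries differed most in interferon-response genes. Female control 2 was the highest library for all 31 members of that list, and male control 2 the lowest for 23. Irf7, the transcription factor that amplifies interferon production, had 24.3, 212.7 and 41.6 FPKM in female libraries and 14.7, 13.7 and 23.7 FPKM in male libraries. Isg15, a ubiquitin-like protein, had 36.5, 223.7 and 70.0 FPKM in female libraries and 21.1, 22.5 and 30.9 FPKM in male libraries. Ifitm3, a membrane protein that restricts virus entry, had 460, 1263 and 618 FPKM in female libraries and 324, 329 and 474 FPKM in male libraries. In these 3 genes female control 2 exceeded all other libraries, female control 3 came next, and for Isg15 and Irf7 all female libraries lay above all male libraries. Bst2 and Ifi27l2a, further interferon-induced membrane proteins, averaged 203 ± 150 and 137 ± 134 FPKM. Reads of Ifi27l2a, Oas1a and the H2 genes could be split between close copies, so their levels are uncertain.

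Antigen presentation moved in the same direction. B2m had 2198, 3819 and 2349 FPKM in female libraries and 1699, 1448 and 2035 FPKM in male libraries. H2-D1, a class I heavy chain, had 684, 1288 and 689 FPKM in female libraries and 618, 582 and 671 FPKM in male libraries. Female control 2 was the highest library for 16 of the 17 members. The list held 2.55% of summed FPKM in female control 2 and 1.13% in male control 2, with 1.60% ± 0.497 over all 6 libraries and 1.41% without female control 2. The interferon list held 1.35% in female control 2, and 0.554% ± 0.409 over all 6. Without female control 2 its mean was 0.394%. As shares of rebuilt fragments, antigen presentation held 0.819% and the interferon list 0.293%. Cd74, the invariant chain of MHC class II, averaged 302 ± 68.7 FPKM and H2-K1, another class I heavy chain, 456 ± 191 FPKM.

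**Figure D3:**
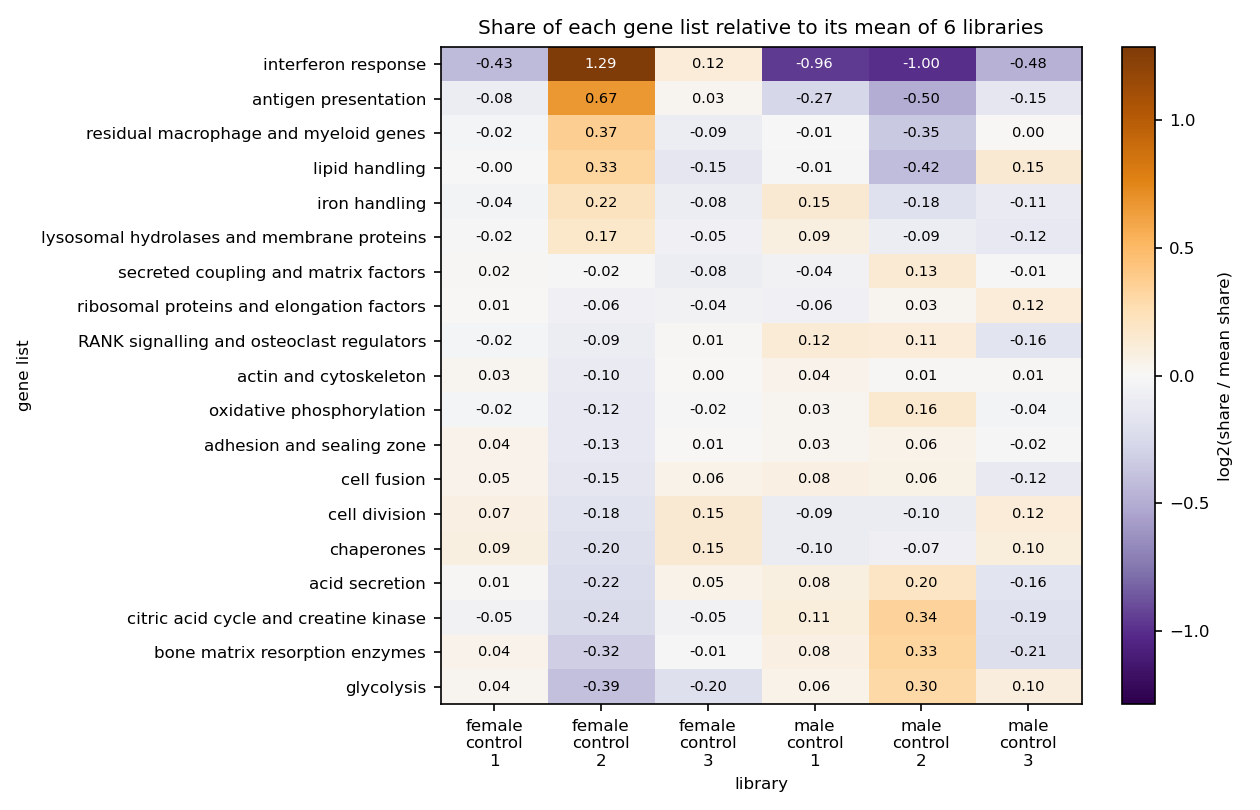
Share of each of 19 gene lists in each control library as the log2 ratio to its mean over 6 libraries, from purple (lower) to orange (higher), with lists in order of female control 2. Female control 2 is higher for interferon (1.29), antigen presentation (0.67) and myeloid genes (0.37) and lower for glycolysis (-0.39) and resorption enzymes (-0.32), and male control 2 has the opposite signs for these 5 lists.

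Female control 2 and male control 2 therefore marked the ends of a shared pattern. The interferon, antigen presentation, myeloid and lipid lists lay at one end. Glycolysis, resorption enzymes and the list of the citric acid cycle and creatine kinase lay at the other. In a principal component analysis of the 1000 most abundant genes, the first component held 54.0% of the variance, with female control 2 at 8.87, male control 2 at -5.41 and the other 4 libraries between -1.99 and -0.13. Both libraries carry batch number 2, and the part of batch in the pattern was not tested. Spearman correlations across these genes, which are not independent replicates, ranged from 0.881 between female control 2 and male control 2 to 0.985 between female control 1 and male control 3. Female control 2 and male control 2 held 18529543 and 18372236 fragments, and the part of depth in the pattern was not tested. The neutrophil share was 1.01% in female control 2 and 0.565% in male control 2, but its highest value, 1.13%, was in male control 3. The part of other cells in the pattern was not tested.

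Single genes varied little in most cases. The coefficient of variation, the SD over the mean of 6 libraries, had a median of 9.09% in the 1000 most abundant genes. Counting error alone would give 1.43%. By abundance, medians were 10.4% in ranks 1 to 100 and 8.82% in ranks 1001 to 5000. Of the 1000 genes, 42 varied by over 30%, and 16 did so without female control 2. The 10 most variable were Irf7, Isg15, Ifi27l2a, Ms4a6d, Bst2, Oas1a, Ifitm3, C1qa, C1qb and C1qc, that is, interferon-induced genes, a macrophage surface gene and the 3 chains of complement C1q. C1qb had 138.7, 362.8 and 143.3 FPKM in female libraries and 154.9, 86.1 and 155.0 FPKM in male libraries.

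The 10 least variable of the top 1000 genes came from transcription, RNA binding, membrane traffic and other general processes. Ctbp1, a transcriptional co-repressor, stayed between 44.1 and 45.4 FPKM, a coefficient of variation of 1.08%. Hnrnpf and Ddx17, RNA-binding proteins, varied by 1.39% and 1.49%, and the actin-nucleating Arp2/3 subunit gene Arpc4 by 1.44%. Ap2m1, a clathrin adaptor, Prdx2, a peroxidase, Ddx39b, an RNA helicase, Ywhag, a 14-3-3 protein, Mrfap1 and Rpn2, an oligosaccharyltransferase subunit, varied by 2.07% to 2.34%. Actb, often used as a reference gene, varied by 4.25%.

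Programs differed in this spread. Among members averaging 10 FPKM or more, the median coefficient of variation was 81.1% in the 25 interferon genes, 35.0% in antigen presentation, 22.2% in myeloid genes, 19.3% in glycolysis and 15.5% in resorption enzymes. It was 11.9% in acid secretion, 9.49% in fusion, 8.37% in adhesion, 7.24% in oxidative phosphorylation and 5.86% in the actin list. Across all 4205 ranked genes of that abundance it was 8.84%. In the ribosomal list the median was 9.25%, and single members could still spread. Rpl17, a large-subunit protein with close copies, had 216.8, 119.5 and 85.02 FPKM in female libraries and 76.7, 146.5 and 102.7 FPKM in male libraries, and its coefficient of 41.5% was the highest of the ribosomal list. Without female control 2 the median of the interferon genes was 38.3%, against 7.84% for all genes of that abundance. The medians of the other lists were not taken without that library, but their leading genes also depended on it. In antigen presentation, B2m fell from 36.9% to 18.9% without it and H2-D1 from 35.0% to 7.23%. In the myeloid list, Lyz2 fell from 21.5% to 14.6% and Ctss from 41.0% to 21.3%. The variation of log2(FPKM + 1) in the top 1000 genes split into 27.5% by sex, 28.3% by batch number and 44.2% remaining. Sex, batch and remainder take 20%, 40% and 40% of the degrees of freedom. For a typical gene the split differed, with medians per gene of 12.9% by sex, 37.2% by batch number and 39.9% remaining. The larger share of sex in the summed squares is thus not that of the median gene.

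**Figure D4:**
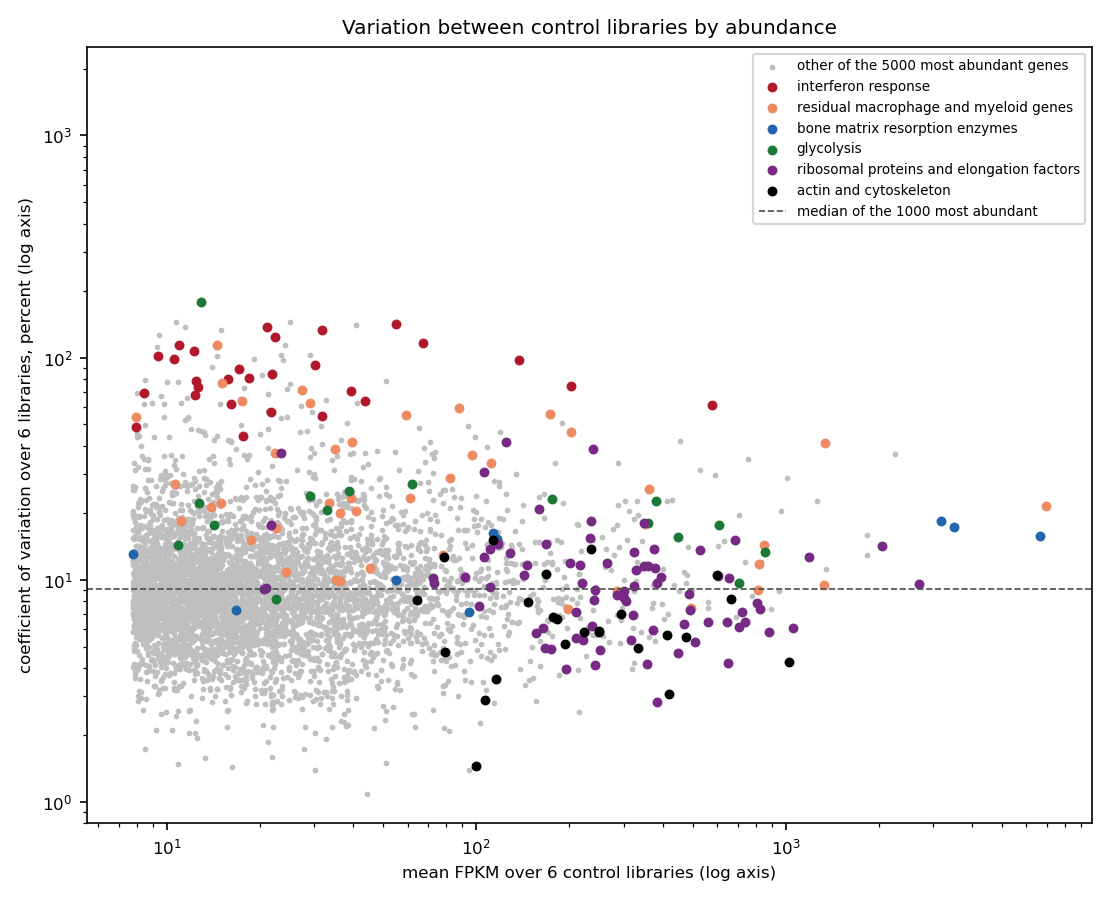
Coefficient of variation over 6 control libraries (percent, log axis) against mean FPKM (log axis) for the 5000 most abundant genes, with 6 lists in colour and a dashed line at the median of the 1000 most abundant (9.09%). Interferon genes (red) lie above the cloud, actin genes (black) mostly below the line, and the 3 leading resorption enzymes (blue, far right) at 15.7% to 18.4%.

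Sex was the 1 labelled contrast among the control libraries besides batch. It was tested with limma over 12237 genes in all 12 libraries of the series, of which 7 genes (0.0572%) passed an adjusted p of 0.05. The 2 higher in female libraries (0.0163%) were Xist and Gdf3, and the 5 lower (0.0409%) were the Y-linked Ddx3y, Eif2s3y, Uty and Kdm5d, at 0 in all 3 female libraries, and the noncoding Gm29650. Gdf3, a TGF-beta family ligand and the 1 autosomal call among 9972 autosomal protein-coding genes (0.01%), had 13.8, 15.3 and 8.47 FPKM in female libraries and 4.14, 2.09 and 4.15 FPKM in male libraries. Its difference in log2(FPKM + 1), female minus male, was 1.60 ± 0.23 (SE), with an adjusted p of 0.0415 by limma, and the groups did not overlap. The call was lost with the replicate number as a block, which the labels equate with the batch, at an adjusted p of 0.128 by limma. It was also lost without female control 1 or 2, at adjusted p-values of 0.168 and 0.157 by limma, and without male control 1, 2 or 3, at 0.0806, 0.0965 and 0.0851. The 6 control libraries alone gave an adjusted p of 0.515 by limma.

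No other autosomal gene passed. At an unadjusted p of 0.05, the limma fit had 373 genes higher and 309 lower in female libraries among all 12237. The next lowest p-values of higher genes belonged to Pparg, a nuclear receptor of lipid metabolism, the nonclassical class I gene H2-M2, the DNA repair gene Nhej1 and the noncoding Gm15523. Pparg had 4.83, 6.06 and 4.51 FPKM in female libraries and 3.47, 2.46 and 2.82 FPKM in male libraries, with an adjusted p of 0.488 by limma. H2-M2 had 22.4, 17.0 and 11.7 FPKM in female libraries and 9.39, 7.16 and 8.09 FPKM in male libraries, with an adjusted p of 0.496 by limma. Among lower genes were Ddit4, a stress-induced inhibitor of mTOR, Impa2, an inositol phosphatase, and H60b, a ligand of NK cells with close copies. A small noncoding RNA without a symbol and an unannotated transcript completed the 5. Ddit4 had 3.15, 2.66 and 1.77 FPKM in female libraries and 4.02, 5.10 and 5.88 FPKM in male libraries, with an adjusted p of 0.488 by limma.

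The interferon list showed the largest median difference between the sexes, without any call. All 31 members had positive female minus male differences, against 5360 of all 9972 autosomal protein-coding genes, and the lowest adjusted p was 0.839 by limma. In 28 of the 31 every female library lay above every male library, where 5.77% of the autosomal protein-coding genes did so. The median difference was 1.24 on the log2(FPKM + 1) scale, and 0.0104 over all those genes. Without female control 2 the same kind of count was again 28 of 31, beside 17.0% of all those genes, and the median was 0.73. Female control 2 was highest for all 31 and male control 2 lowest for 23. The interferon members thus moved together and are not independent observations. For antigen presentation, 16 of 17 differences were positive, with a median of 0.44, and 0.14 without female control 2. For glycolysis, 15 of 16 were negative, with a median of -0.35, and -0.28 without female control 2. In 4 of those 16 every female library lay below every male library, beside 3.26% of all those genes. Ldha had 632, 495 and 492 FPKM in female libraries and 587, 770 and 669 FPKM in male libraries, which overlap. Resorption enzymes had a median of -0.11, with no call and no member free of overlap. The myeloid list had 41 of 46 positive differences with a median of 0.22, and 28 of 46 with a median of 0.05 without female control 2. The TPM and TMM scalings kept the sign of each median named in this paragraph that includes female control 2. They were not run without that library.

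**Figure D5:**
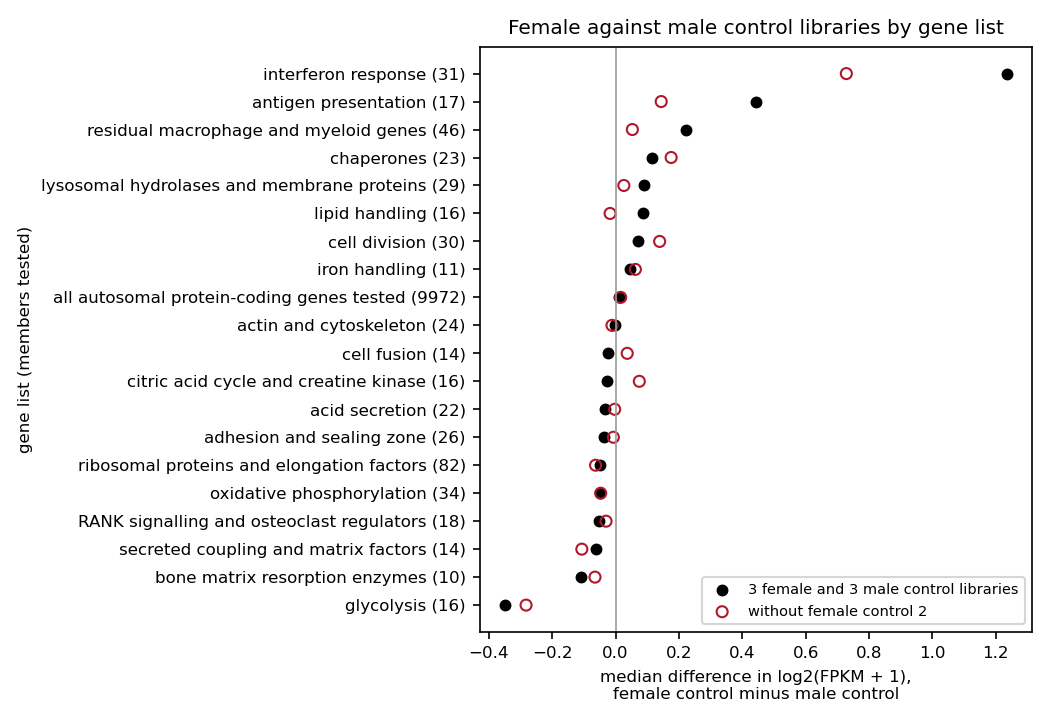
Median over the tested members of each gene list of the difference in log2(FPKM + 1), female control minus male control, from all 6 control libraries (black) and without female control 2 (open red). Interferon genes lie at 1.24 and 0.73, glycolysis genes at -0.35 and -0.28, and all 9972 autosomal protein-coding genes near 0.

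Promoter sequence was examined as a feature that the ranking did not use. Of the 100 most abundant genes, 77 had a promoter in the RefSeq table of GRCm38.p6, and the 250 bases before the first start site were searched on both strands. TATAAA, the core of the TATA box, was in 16.9% of the 77, in 5.83% of the 7851 genes averaging 1 FPKM or more and in 12.2% of all 15933 autosomal protein-coding promoters. CCAAT was in 33.8% of the 77, 36.6% of the expressed genes and 35.9% of all promoters. TGANTCA, bound by AP-1, was in 6.49%, 4.36% and 6.33%. TCATGTG, an E-box bound by MITF family factors, was in 1.30%, 1.80% and 2.55%. The motifs may overlap one another, and a match is a description and not a binding site. Restricted to the sense strand and a start 20 to 40 bases before the gene's start, TATAAA was in 5 of the 77 (6.49%), beside 1.02% of the expressed genes and 2.92% of all promoters. Promoters of Lyz2, Ctsk and Acp5 held none of the 4 motifs in the window of their first start site. The 5 genes with TATAAA in that position are shown with the 60 bases before their start, TATAAA in capitals, since they span several programs, namely creatine kinase, MHC class I, the cytoskeleton, an annexin and calprotectin. Coordinates are of GRCm38.p6 and sequences run 5′ to 3′ on the gene's strand.
Ckb, chr12:111672339-111672398, minus strand: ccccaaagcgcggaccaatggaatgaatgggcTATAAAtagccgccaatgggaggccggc
H2-D1, chr17:35263034-35263093, plus strand: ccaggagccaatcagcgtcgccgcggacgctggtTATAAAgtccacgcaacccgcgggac
Vim, chr2:13574251-13574310, plus strand: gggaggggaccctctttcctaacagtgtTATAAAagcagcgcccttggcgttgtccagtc
Anxa1, chr19:20390672-20390731, minus strand: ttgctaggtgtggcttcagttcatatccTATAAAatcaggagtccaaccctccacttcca
S100a8, chr3:90669011-90669070, plus strand: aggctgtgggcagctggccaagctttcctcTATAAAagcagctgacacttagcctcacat
Their mean levels were 1258 FPKM for Ckb, 755 FPKM for H2-D1, 667 FPKM for Vim, 630 FPKM for Anxa1 and 592 FPKM for S100a8. The motif began 26 to 32 bases before the start in all 5.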

How the data were processed

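The authors' deposited table holds FPKM for 55806 genes of all 12 libraries. Per the submitters' processing notes, the tools were HISAT2 2.0.5 and featureCounts 1.5.0-p3 and the build was mm10. The sources used here do not say whether strand was counted. 1 emptied line was not used, and no coordinate of the table is printed, since only 2.87% of shared gene identifiers had coordinates identical to the GRCm38 annotation at hand. FPKM times deposited gene length gave whole fragments in 100% of values (tolerance 0.01). From the deposited FPKM were computed ranks, means and shares of the summed FPKM of autosomal protein-coding genes over the 6 control libraries, each gene in 1 of 27 lists at most.

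The female minus male contrast used limma 3.58.1 in R 4.3.3 on log2(FPKM + 1) with a mean per group over all 12 libraries, so Per1 knockout libraries informed the spread. Genes needed 1 FPKM in at least 3 libraries, variances had a trend, tests were two-sided, and p-values were Benjamini-Hochberg adjusted at 0.05. Differences on this scale understate those of low genes. The fit was tested on simulated data. The labels give each replicate number as a batch number, which pairs the libraries. Deviations from the group means of same-numbered female and male libraries correlated at -0.304, -0.323 and -0.0824 across genes. Members, lists and tests were chosen with earlier results of these data known. Named genes were the 25 most abundant, the 4 markers, the 4 highest and the most variable member (at 10 FPKM or more) of each program list, the 10 most and least variable of the top 1000, the 2 highest of each other-cell list, and, for sex, calls or the 5 lowest p-values per direction. Genes said to be named after their values were seen are outside this rule. Python 3.11.15, pandas 2.3.3 and numpy 2.4.6 were used. Alternatives were other pseudocounts, filters, scalings, sums and units, a replicate block, and leaving out each library.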

Additional observations from a re-analysis of the deposited data

Results flagged for a closer look

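Of 163 shares and gene levels tested over the 6 control libraries, 22 had a highest or lowest library whose gap to the next exceeded Dixon's critical value for 6 samples. Chance flags about 1 in 20 groups, but many of these genes were tested because they vary most, so the number of flags cannot be read against that rate. Of the 22, 20 were in female control 2. In that library the interferon list stood high at 1.35% and antigen presentation at 2.55% of summed FPKM, and the actin list stood low at 2.35%. Its high class I genes were H2-D1 at 1288 FPKM, H2-K1 at 831 FPKM and H2-T23 at 129 FPKM. Its high interferon genes were Ifitm3 at 1263 FPKM, Bst2 at 501 FPKM, Ifi27l2a at 405 FPKM, Isg15 at 224 FPKM and Irf7 at 213 FPKM. Complement genes were also high there, with C1qb at 363 FPKM, C1qa at 190 FPKM, C1qc at 124 FPKM and C3 at 186 FPKM. The other high genes of female control 2 were Lgmn at 210 FPKM, the macrophage gene Ms4a6d at 131 FPKM, the Fc receptor gene Fcgr1 at 48.2 FPKM, the oxysterol receptor gene Nr1h3 at 29.5 FPKM and the stromal gene Dcn at 2.59 FPKM. Calcr was low in male control 3, at 11.6 FPKM, and Gapdh was high in male control 1, at 59.6 FPKM. Causes were not tested.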

How the results depend on the processing

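Counting all genes of the table in the sum, or shares of rebuilt fragments in place of FPKM, moved most shares by more than 1 SD. The top 100 genes held 26.2% with all genes in the sum and 18.5% of fragments. With all genes in the sum, shares were 9.50% ribosomal, 4.68% myeloid, 4.20% resorption, 2.37% lysosomal, 2.05% actin, 1.35% oxidative phosphorylation, 1.15% glycolysis, 1.05% acid secretion, 1.00% iron, 0.993% chaperones, 0.746% adhesion, 0.699% citric acid cycle with creatine kinase, 0.424% secreted, 0.371% lipid, 0.355% fusion, 0.285% cell division and 0.265% RANK. As fragments they were 6.24% ribosomal, 3.48% resorption, 3.45% myeloid, 1.64% glycolysis, 1.45% acid secretion, 1.21% adhesion, 1.10% oxidative phosphorylation, 0.948% iron, 0.819% antigen presentation, 0.756% lipid, 0.474% fusion, 0.455% secreted, 0.403% cell division, 0.367% RANK and 0.293% interferon, with glycolysis above oxidative phosphorylation. Genes higher in female libraries numbered 1, and autosomal ones 0, with a pseudocount of 0.1, no filter, the 6 control libraries alone, no variance trend, or the replicate block, which changed no other call. A filter of 5 FPKM left 2 lower genes. The called genes Uty, Kdm5d and Gm29650 lay below 5 FPKM in every control library. Leaving out 1 library gave 1 to 3 higher and 5 to 7 lower genes, with 0 to 2 autosomal in each direction. The Gdf3 difference lay between 1.36 and 1.89 over 15 alternatives, its adjusted p by limma between 0.00974 and 0.515, and 5 of the 15 called it. H2-M2 passed without female control 3, at an adjusted p of 0.0337 by limma. None of the 10 named autosomal differences changed sign. Leaving out female control 2 moved the interferon share by a factor of 1.41, the largest such move of a share. A count-model test of the rebuilt fragments was planned and not run. The counts of libraries without overlap and the variation without female control 2 were added after seeing the data. Depth limits values near 0.130 to 0.192 FPKM.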
